A study of Mus musculus with 16 samples.

Results

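Cultured mouse cardiac fibroblasts given a Cre adenovirus were compared with fibroblasts of the same preparation given a GFP adenovirus, both in medium without transforming growth factor beta (TGF-beta). The comparison holds 8 of the 16 libraries of the study, 4 with Cre and 4 with GFP. Library Cre 1 was paired with GFP 1 and so on, because same-numbered libraries carry one preparation code in their names. Preparations 1 and 4 were labelled male, and preparations 2 and 3 female. The protocol gives Has2fl/fl mice as the source of all cells and Cre as the means to delete exon 2 of Has2, whereas the genotype field reads wild type C57BL/6J for every sample. The GFP cells therefore carried the same genotype and were also infected, with a virus that makes green fluorescent protein in place of the recombinase. At passage 2 the cells were kept without serum for 24 h, exposed to virus for 5 h, given fresh medium and collected after 48 h. The protocol names basic fibroblast growth factor and TGF-beta at 20 ng/mL together, and it is not clear which of them the cells without TGF-beta received. Neither the age of the mice nor the number of hearts behind a preparation is stated in the labels. Cre protein, the virus stock and the loss of Has2 exon 2 differed together between the groups and cannot be told apart.

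Hyaluronan is a long sugar polymer of the extracellular matrix that is spun out at the cell surface by membrane synthases, of which Has2 is a main one in fibroblasts and in the developing heart. Cells that sense viral or misplaced nucleic acid release type I interferon, which acts through its receptor, the STAT proteins and interferon regulatory factors. These turn on a large set of antiviral genes by binding a short promoter element, the interferon-stimulated response element. Type II interferon acts at a related element, the gamma-activated site, and drives the genes of guanylate-binding proteins and antigen presentation most strongly.

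Depth was 23.5 ± 4.58 M counts (SD, n = 4; 17.9 to 28.0) in the GFP libraries and 36.0 ± 11.1 M (21.7 to 48.7) in the Cre libraries. Levels are given as counts per M of the library total after TMM scaling (CPM), and differences as log2 Cre minus GFP. The labelled cell type was checked by its markers, and the 11 fibroblast genes summed to 26580 to 54228 CPM with GFP and 25493 to 50397 CPM with Cre. Preparation 4 stood apart in both groups: it had the lowest fibroblast sums, and its 10 most abundant genes took 7.34% and 7.23% of the counts, against 10.3% to 11.5% in the other 6 libraries. Macrophage and leukocyte markers were also present, at 801 to 1745 CPM with GFP and 705 to 1873 CPM with Cre, again highest in preparation 4. Of these 16 markers, Cd3e and Cd79a of T and B cells had at most 2 counts in any library. Of 12 cardiomyocyte markers 3 were high enough to test, and Actc1, Nppa and Pln had 0 counts in all 8 libraries.

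The targeted gene was read first. Has2 (ENSMUSG00000022367, chromosome 15) stood at 18.0, 15.3, 23.2 and 18.4 CPM in GFP libraries 1 to 4 and at 14.9, 13.5, 16.6 and 13.9 CPM in Cre libraries 1 to 4. Each Cre library was below its own GFP library, but the groups overlapped between 15.3 and 16.6 CPM. The values rested on 361 to 656 counts. Over 16 libraries, edgeR's quasi-likelihood test blocked by preparation put the difference at -0.32 ± 0.15 (SE, adjusted p = 0.827). With only the 8 libraries compared it was -0.33 ± 0.08 (adjusted p = 0.0435), with a 95% interval from -0.49 to -0.17. An exact sign-flip permutation test over the 4 preparations gave p = 0.125, the smallest that 4 pairs allow. Counts were summed over the whole gene, and exon 2 accounts for 14.8% of a transcript of 4237 bases, so a loss of its reads alone would come to -0.23. Reads of exon 2 were not analysed here, and how far exon 2 was deleted was not measured. Without preparation 1, 3 or 4 the 8-library value lay between -0.35 and -0.28 and did not pass.

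The other hyaluronan synthases gave no call. Has1 was low and ranged from 0.301 to 4.31 CPM with GFP and from 0.549 to 5.16 CPM with Cre, lowest in preparation 1 and highest in preparation 4 with either virus. Its difference was 0.31 ± 0.33 (edgeR, adjusted p = 0.907). Has3, with 0 to 10 counts a library, fell below the filter.

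Over all 15285 genes tested, edgeR's quasi-likelihood test with the preparation as a block called 25 genes higher in Cre cells (0.164% of those tested) and 1 lower (0.00654%) at an adjusted p under 0.05. At an unadjusted p under 0.05 there were 882 of the 15285. Nearly all of the 25 are known targets of interferon. They include genes of guanylate-binding proteins and immunity-related GTPases (Gbp2, Gbp3, Gbp5, Igtp, Irgm2, Tgtp2, Ifi47), antiviral effectors (Oas1a, Oas1g, Ifit1, Cmpk2), the ISG15 pathway and other interferon-induced proteins (Isg15, Uba7, Herc6, Ifi35, Tor3a), the peptide transporter Tap1 and the chemokine Cxcl10. Outside the interferon lists were Slfn2, Sp110, Mndal and Phf11b, nuclear or cytosolic proteins induced by interferon, the uroplakin Upk1b, and 1 gene with no established name. All 25 were higher in 4 of 4 preparations, a direction that 12.7% of all genes tested shared. For 12 of the 25 the Cre and GFP libraries did not overlap, as was so for 1.13% of all genes tested. The 25 were picked by a test on these same libraries, which favours genes that go 1 way in all pairs. Both counts therefore describe the 25 and are no separate support. The differences ran from 0.52 to 1.74, and each of the 25 was largest in preparation 3. In 20 of them preparation 4 showed the smallest. Without preparation 1, 2 or 3, or without any single GFP or Cre library of those preparations, 0 genes were called in the same fit. Without preparation 4 edgeR called 103 higher and 11 lower, and without its Cre library alone 67 and 2. Without the block edgeR called 0 in either direction, with 169 genes at an unadjusted p under 0.05, and DESeq2 with the block called 75 higher (0.491%) and 3 lower (0.0196%), among them all 25.

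The promoters of several of these genes are shown for a sequence element that the test did not use. The 6 shown were chosen among the called genes that hold it, and others do not. The letters GAAANNGAAA, the core of the interferon-stimulated response element, were searched on both strands from 250 bases before to 50 after the start (RefSeq, GRCm38.p6). Capitals mark each match, which reads as TTTCNNTTTC where it lies on the other strand, and overlapping matches run together. Each stretch is 80 bases, 5′ to 3′ on the strand of the gene.
Gbp2, chr3:142620564-142620643 (plus strand): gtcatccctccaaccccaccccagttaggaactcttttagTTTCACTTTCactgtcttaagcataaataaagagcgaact
Irgm2, chr11:58214873-58214952 (plus strand): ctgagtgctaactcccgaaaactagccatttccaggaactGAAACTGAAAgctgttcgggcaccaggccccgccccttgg
Oas1a, chr5:120907526-120907605 (minus strand): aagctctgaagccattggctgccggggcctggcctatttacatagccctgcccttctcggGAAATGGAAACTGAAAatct
Ifit1, chr19:34640764-34640843 (plus strand): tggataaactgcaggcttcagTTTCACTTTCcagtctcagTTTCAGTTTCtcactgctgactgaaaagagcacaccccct
Isg15, chr4:156200845-156200924 (minus strand): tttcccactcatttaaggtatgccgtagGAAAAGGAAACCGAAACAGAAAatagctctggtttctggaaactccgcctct
Cxcl10, chr5:92349060-92349139 (minus strand): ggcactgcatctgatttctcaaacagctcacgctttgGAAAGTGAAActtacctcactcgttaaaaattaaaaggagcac

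The promoter table held 21 of the 25 called genes, and 13 of the 21 (61.9%) had at least 1 match in any of its windows. Of all genes tested that could be matched, 3.84% of 10764 had one, and 3.44% of the 32851 windows as a whole had one. The core of the gamma-activated site, TTCNNNGAA, was found in 6 of the 21 (28.6%) against 8.27% of the genes tested. Neither share was particular to the called genes. The lists of guanylate-binding proteins and GTPases, antiviral effectors and the ISG15 pathway had 42 tested genes with a window, called or not. Of these, 22 (52.4%) held GAAANNGAAA and 13 (31%) held TTCNNNGAA. Herc6, Uba7, Cmpk2, Ifi47, Tap1, Ifi35, Slfn2 and Sp110 were among the called genes with no GAAANNGAAA in this window. A match is a string of letters and no measure of binding.

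Guanylate-binding proteins and immunity-related GTPases, which coat and disrupt the vacuoles of intracellular microbes, held the most called genes. Of 16 tested, 7 rose and 9 did not pass, and the median difference of the list was 0.70 beside -0.01 over all genes tested. Gbp2 (ENSMUSG00000028270, chromosome 3) stood at 47.2, 49.3, 46.7 and 57.2 CPM in GFP libraries 1 to 4 and at 82.2, 78.1, 126 and 80.7 CPM in Cre libraries 1 to 4. The GFP values were close together and every Cre library lay above all of them. Its difference was 0.84 ± 0.11 (edgeR, adjusted p = 0.0344). Gbp5, which supports inflammasome assembly, was at 5.56, 6.66, 6.75 and 6.13 CPM with GFP and at 10.1, 11.6, 13.4 and 9.49 CPM with Cre, again without overlap. It rose by 0.82 ± 0.13 and the 4 preparations differed by 0.62 to 0.98. Irgm2, a regulator of the other GTPases, was at 64.6, 76.4, 77.6 and 83.7 CPM with GFP and at 97.8, 100.2, 139 and 98.4 CPM with Cre.

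For Gbp3 and Tgtp2 preparation 4 was the highest of the GFP libraries. Gbp3 was at 31.2, 22.4, 29.3 and 78.6 CPM with GFP and at 80.8, 45.7, 119 and 94.5 CPM with Cre. Its GFP 4 library thus lay above Cre 2, and the groups overlapped although each pair went the same way. Tgtp2 was at 6.32, 11.3, 14.1 and 24.2 CPM with GFP and at 15.3, 21.3, 42.6 and 32.5 CPM with Cre, a rise of 1.05 ± 0.17 (adjusted p = 0.0344). Igtp rose by 0.99 ± 0.17 and Ifi47 by 0.62 ± 0.12. Many of these genes have near-identical neighbours in the genome, such as Tgtp1 beside Tgtp2 and Oas1a beside Oas1g, so how reads were shared within a pair is uncertain.

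Antiviral effectors include proteins that bind viral RNA, and their list had the highest median. Of 20 tested 4 rose, 16 did not pass and the median was 1.00. All 20 lay above 0. Ifit1 (ENSMUSG00000034459), which binds viral RNA lacking the host's cap, was at 59.5, 85.3, 86.5 and 126 CPM with GFP and at 150, 143, 248 and 205 CPM with Cre. Every Cre library was above every GFP library, and the difference was 1.08 ± 0.17 (edgeR, adjusted p = 0.0344). Oas1g, a member of the family of synthetases that activate RNase L, was at 3.08, 4.21, 3.02 and 6.74 CPM with GFP and at 9.35, 9.53, 14.9 and 12.9 CPM with Cre. The groups did not overlap and the rise was 1.51 ± 0.22. Oas1a was at 19.4, 23.2, 25.7 and 44.2 CPM with GFP and at 42.3, 45.7, 68.2 and 58.6 CPM with Cre, so that GFP 4 lay above the lowest Cre library. Cmpk2, a mitochondrial nucleotide kinase, rose by 1.00 ± 0.18. Ifit3, which stabilises Ifit1 complexes, had a larger difference than either, 1.30 ± 0.24, and non-overlapping groups (117 to 235 CPM with GFP, 301 to 564 CPM with Cre), yet its adjusted p was 0.0539. The antiviral GTPase Mx1 stood at 1.22 ± 0.31 with an adjusted p of 0.237.

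ISG15 is a ubiquitin-like protein that interferon induces together with the enzymes that attach it. Of the 22 genes tested on that list 5 rose and 17 did not pass, with a median of 0.67. Isg15 itself (ENSMUSG00000035692) was at 58.7, 97.96, 87.2 and 145 CPM with GFP and at 179, 197, 281 and 228 CPM with Cre, with no overlap. It rose by 1.28 ± 0.22 (edgeR, adjusted p = 0.0432). Uba7, its activating enzyme, was at 33.6, 37.9, 32.7 and 37.2 CPM with GFP and at 52.6, 50.3, 61.7 and 51.5 CPM with Cre, a rise of 0.61 ± 0.11. The conjugating enzyme Ube2l6 went from 66.0 ± 9.71 to 104 ± 14.2 CPM (SD, n = 4) and came just short of the threshold (0.67 ± 0.12, adjusted p = 0.0517). The ligase Herc6 rose by 0.84 ± 0.15. Ifi27 and Lgals3bp show how the list varied: Ifi27 had a negative difference, -0.38 ± 0.15, and Lgals3bp was higher in 3 of 4 preparations.

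**Figure D1:**
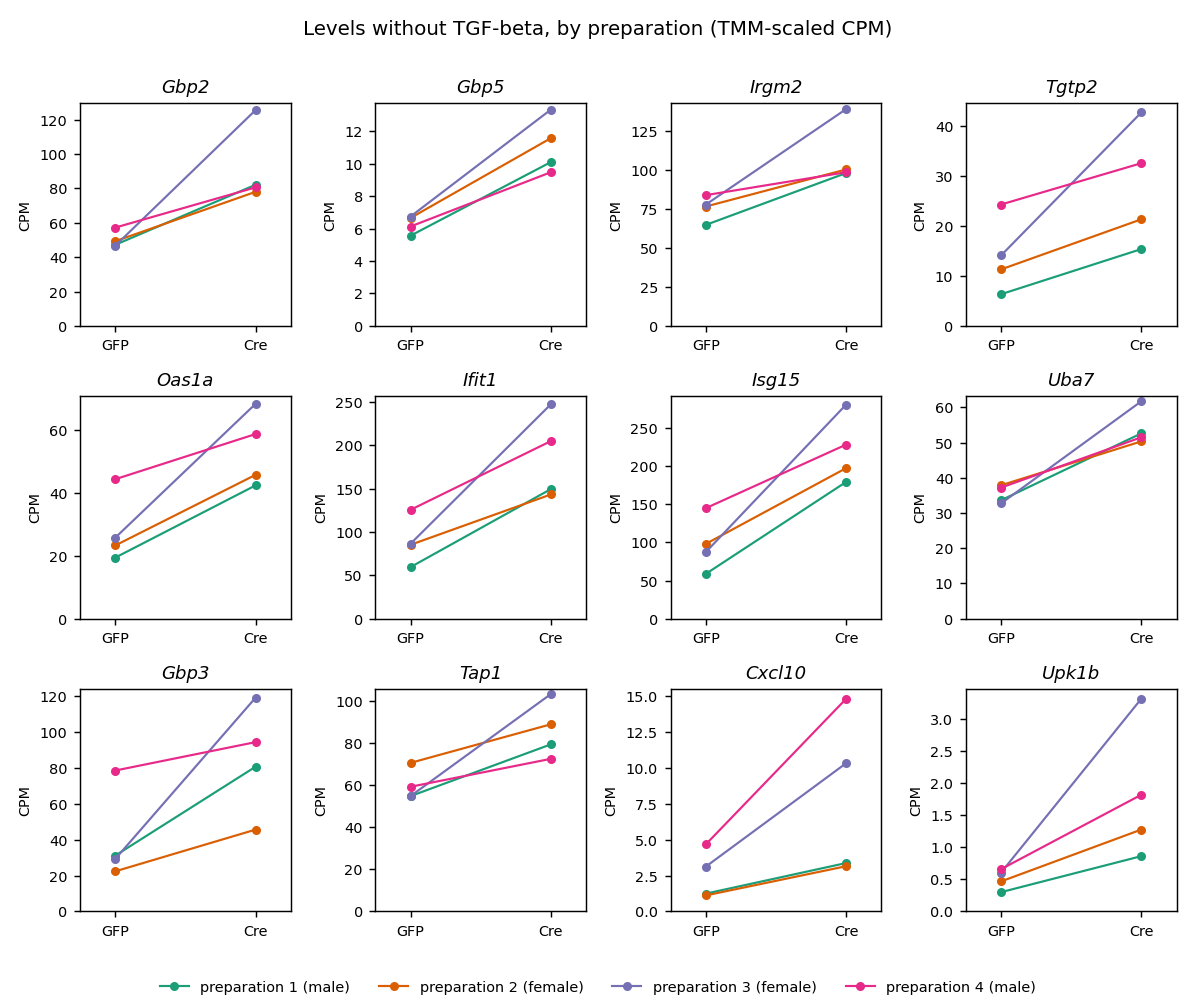
TMM-scaled CPM (linear axes from 0) of 12 called genes in the GFP and the Cre library of each preparation, joined by a line per preparation and coloured by preparation. All lines go up, and that of preparation 3 is the steepest in log2 terms for each of the 25 called genes.

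Over these 3 lists together 58 genes were tested, 16 rose, 0 fell and 42 did not pass. As a description, 56 of the 58 had a difference above 0 and 50 were higher in all 4 preparations, where 12.7% of all genes tested were. For 16 of the 58 the groups did not overlap, as was so for 1.13% of all genes tested with Cre higher and 0.334% with Cre lower. The median difference was 0.80, and it was 0.84, 0.70, 1.22 and 0.29 within preparations 1 to 4. Preparation 4 showed the smallest within-preparation medians on each of the 3 lists, and its GFP library held the highest summed level of each among the GFP libraries. For the antiviral effectors those sums were 747, 867, 895 and 1489 CPM with GFP and 1545, 1429, 2376 and 1988 CPM with Cre. GFP 4 thus lay above Cre 2. Macrophage markers were highest in the same library, and their part in its interferon levels was not tested. From GFP to Cre those marker sums moved from 801 to 812, from 987 to 911, from 835 to 705 and from 1745 to 1873 CPM in preparations 1 to 4. Without preparation 1, 2 or 3 the 3 lists held 0 calls each, and without preparation 4 they held 13, 9 and 18, in the order antiviral effectors, GTPases and ISG15 pathway. Over those 4 fits the median of the antiviral effectors stayed between 0.85 and 1.13.

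**Figure D2:**
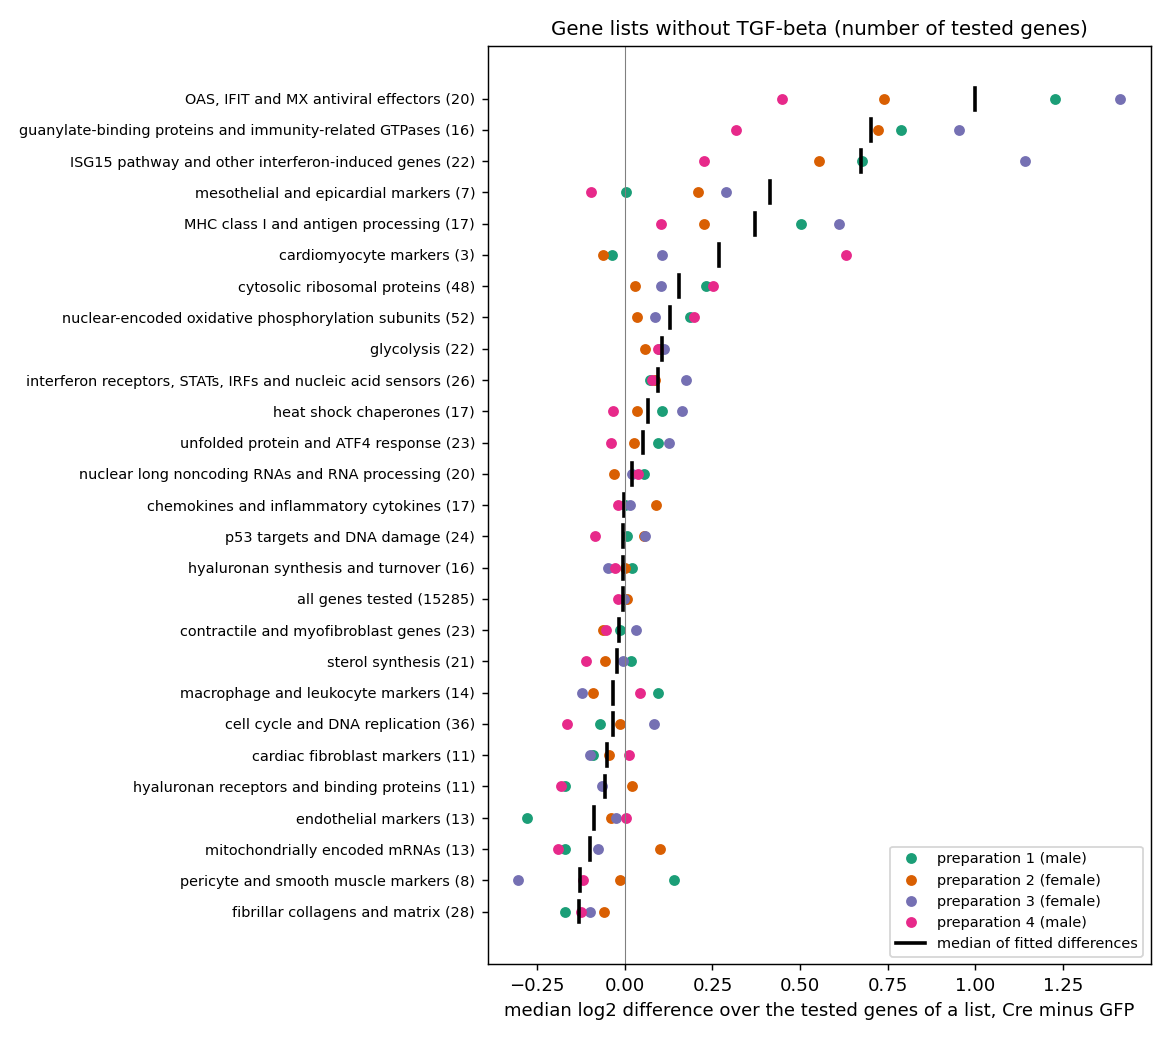
Median log2 difference (Cre minus GFP, x axis) over the tested genes of each list, 1 dot per preparation and a black bar for the median of the fitted differences. The 3 interferon lists lie furthest to the right with all 4 preparations above 0, and the median of all 15285 genes tested is at -0.01.

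Interferon receptors, STATs, interferon regulatory factors and nucleic acid sensors numbered 26 tested genes, of which 25 did not pass, and their median was 0.10. Stat2, which carries the type I interferon signal to the nucleus, stood at 0.63 ± 0.14 (edgeR, adjusted p = 0.126). Irf7, the interferon-induced factor that amplifies type I interferon production, was at 58.2, 83.7, 67.5 and 239 CPM with GFP and at 206, 171, 298 and 268 CPM with Cre. The first 3 pairs differed by 1.82, 1.03 and 2.14 and the fourth by 0.16, and its adjusted p was 0.0760. Zbp1, a sensor of left-handed nucleic acid, had the same shape (1.58, 1.02, 1.63 and 0.25, adjusted p = 0.0539). The receptor subunit Ifnar1 was at 109 ± 8.32 CPM with GFP and 100 ± 9.33 CPM with Cre (-0.12 ± 0.06, adjusted p = 0.827), and Irf3, which is not induced by interferon, at 32.9 ± 3.09 and 36.0 ± 2.58 CPM (SD, n = 4). The 8 interferon genes themselves were not detectable at this depth beyond 3 counts of Ifnb1 and 1 of Ifna4 as the highest in any library, and none was tested.

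Genes of MHC class I presentation, which load peptides onto surface molecules for T cells, were mostly small positive differences. Of 17 tested, Tap1 rose and 16 did not pass, with a median of 0.37 and within-preparation medians of 0.50, 0.23, 0.61 and 0.10. Tap1 (ENSMUSG00000037321) was at 54.9, 70.7, 54.9 and 59.3 CPM with GFP and at 79.5, 89.0, 103 and 72.6 CPM with Cre, without overlap, a rise of 0.52 ± 0.10 (edgeR, adjusted p = 0.0482). In a fit to the 8 compared libraries alone, which called 0.784% of all genes tested higher, 6 of the 17 passed: Tap1, its partner Tap2 (0.30 ± 0.05), the immunoproteasome subunits Psmb9 (0.85 ± 0.17) and Psmb10 (0.58 ± 0.09), and the proteasome activators Psme1 and Psme2 (0.38 ± 0.06). With a trend on transcript length and GC content removed Tap1 did not pass there (0.53, adjusted p = 0.133) and the other 5 did.

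Chemokines and inflammatory cytokines did not move as a list. Of 17 tested 1 rose, and 8 lay above 0. Cxcl10 (ENSMUSG00000034855), a T cell attractant named for its induction by interferon, was at 1.24, 1.12, 3.12 and 4.66 CPM with GFP and at 3.37, 3.15, 10.3 and 14.8 CPM with Cre. Levels differed widely between preparations and the groups overlapped, while the differences within preparations lay close together, at 1.39, 1.44, 1.70 and 1.65. The rise was 1.59 ± 0.27 over 16 libraries (edgeR, adjusted p = 0.0344) and 1.61 ± 0.12 over the 8 compared (adjusted p = 2.99e-05). Ccl2 (0.26 ± 0.34) and Il6 (0.23 ± 0.53), which NF-kappaB drives, did not pass. The monocyte attractant Ccl7 was higher in 4 of 4 preparations and passed with the 8 libraries (0.39 ± 0.07, adjusted p = 0.0122), also with the trend on length and GC content removed (0.27, adjusted p = 0.0229), but not over 16 (0.38 ± 0.26, adjusted p = 0.850).

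Upk1b and Stab1 were the called genes of another kind. Upk1b (ENSMUSG00000049436), a tetraspanin of urothelium and mesothelium, was at 0.301, 0.468, 0.605 and 0.659 CPM with GFP and at 0.862, 1.28, 3.31 and 1.82 CPM with Cre. Its libraries held 8 to 13 counts with GFP and 33 to 74 with Cre, and the rise of 1.74 ± 0.28 (edgeR, adjusted p = 0.0344) was the largest among the called genes. The other 6 mesothelial and epicardial markers tested did not pass, and the whole list summed to 31.0 to 45.9 CPM with GFP and 30.6 to 45.9 CPM with Cre. Stab1 (ENSMUSG00000042286) encodes stabilin-1, a scavenger receptor of macrophages and sinusoidal endothelium related to the hyaluronan clearance receptor stabilin-2. It was at 90.3, 77.5, 90.9 and 112 CPM with GFP and at 59.7, 56.9, 55.8 and 98.8 CPM with Cre. Each pair fell, but Cre 4 lay above 3 of the GFP libraries. The difference was -0.48 ± 0.08 (edgeR, adjusted p = 0.0414). It was -0.35 and no longer passed once a trend on transcript length and GC content was removed (adjusted p = 0.249), in a fit that called 35 genes higher (0.229%) and 0 lower. Mrc1, another receptor of tissue macrophages, was lower in 4 of 4 preparations (-0.45 ± 0.27), as was Adgre1 (-0.20 ± 0.08), and both missed the threshold over 16 libraries. The 14 macrophage and leukocyte markers tested did not move as a list, with a median of -0.03 and 5 above 0. Of the 14, 3 were lower in all 4 preparations, where 13.3% of all genes tested were, and 1 was higher in all 4. In the 8-library fit Mrc1 passed (-0.47 ± 0.09), and of the other macrophage markers the Fc receptor Fcgr1 was higher (0.54 ± 0.11). With the trend removed Mrc1 did not pass (adjusted p = 0.253) and Fcgr1 did (adjusted p = 0.0257).

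The number of calls changed when the spread was estimated from the 8 compared libraries alone, still with the preparation as a block. edgeR then called 115 genes higher (0.784% of 14677) and 163 lower (1.11%), with 2783 at an unadjusted p under 0.05. The biological coefficient of variation was 0.0664 in this fit and 0.123 over 16 libraries, at 3 and 9 residual degrees of freedom. Of the 25 genes higher over 16 libraries 16 were among the 115, and Stab1 was among the 163. The differences were small: the median was 0.38 among the genes called higher and -0.30 among those called lower. Strong but uneven genes such as Isg15 (adjusted p = 0.118) and Gbp3 (0.243) did not pass in it, whereas small even ones did. Gbp2 (0.0812), Ifit1 (0.0849), Tgtp2 (0.0746), Igtp (0.0725) and Oas1a (0.0598) did not pass in it either. With the trend on length and GC content removed, 9 of the 25 were called in the 8-library fit. Genes named from this fit alone were picked with their values in view. Leaving out a preparation moved its counts between 15 and 272 higher and between 3 and 540 lower, lowest without preparation 1 and highest without preparation 2. Without preparation 3 there were 70 higher and 39 lower, and without preparation 4 there were 140 and 54.

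**Figure D3:**
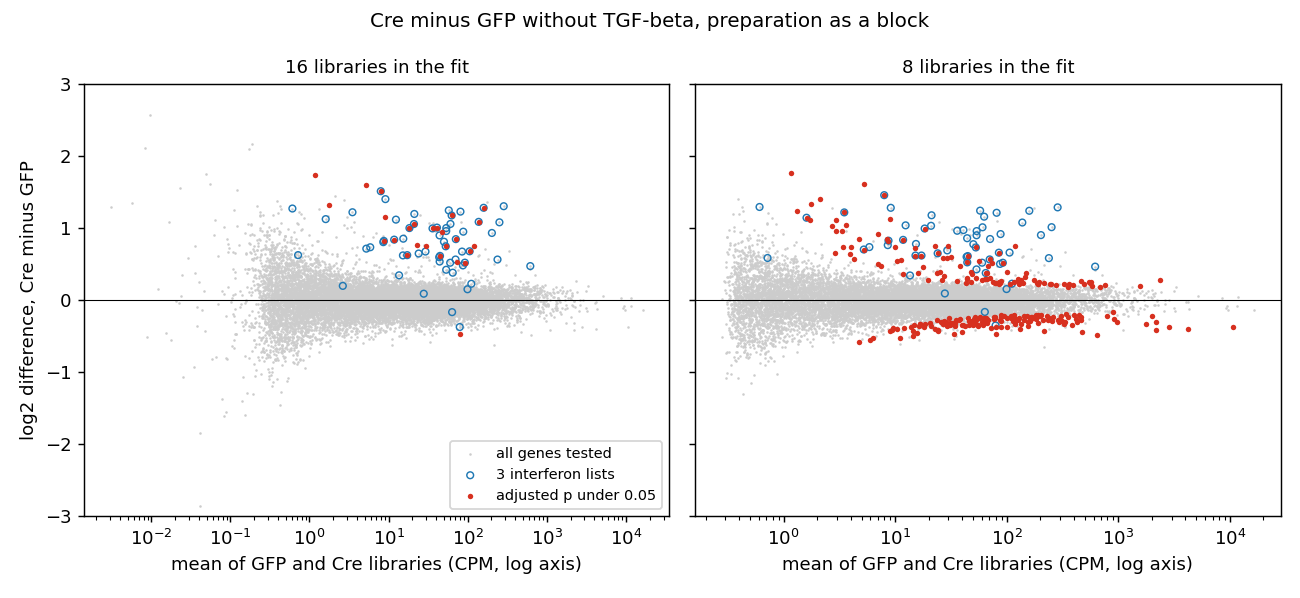
Fitted log2 difference (Cre minus GFP) of each gene against its mean CPM (log axis), in the 16-library fit (left) and the 8-library fit (right), with genes at an adjusted p under 0.05 in red and the 3 interferon lists circled in blue. The 25 genes called higher at left lie at 0.52 and above, and at right 163 lower genes form a thin band with a median of -0.30.

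The 8-library fit called 1.11% of all genes tested lower. Among them were 7 of 28 tested genes of fibrillar collagens and matrix, the scaffold that cardiac fibroblasts lay down: Col6a3, Thbs2, Col14a1, Postn, Fn1, Fbn1 and Col11a1. Over 16 libraries 0 of the 28 passed and DESeq2 called 0. At an unadjusted p under 0.05 there were 2, beside 882 of all 15285 genes tested. The list's median was -0.13, and 15 of the 28 were lower in all 4 preparations, where 13.3% of all genes tested were. Fn1 (ENSMUSG00000026193), fibronectin, was at 11989, 13745, 15986 and 5902 CPM with GFP and at 8332, 12738, 11620 and 4489 CPM with Cre. Each pair was lower with Cre, at -0.53, -0.11, -0.46 and -0.39 on the log2 scale, while the groups overlapped widely and preparation 4 was low with either virus. Thbs2, a matricellular thrombospondin, was at 538, 652, 487 and 218 CPM with GFP and at 428, 538, 362 and 187 CPM with Cre, a difference of -0.31 ± 0.05 (edgeR, 8 libraries, adjusted p = 0.00712). Postn, periostin, a marker of activated fibroblasts, was at 223, 66.6, 110.4 and 122 CPM with GFP and at 171, 52.9, 84.3 and 111 CPM with Cre. Its 8-library value was -0.31 ± 0.05, and over 16 libraries -0.28 ± 0.49. The main fibrillar collagen Col1a1 stood at -0.09 ± 0.04 and did not pass in either fit (adjusted p = 0.201 with 8 libraries).

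Of 16 tested genes of hyaluronan synthesis and turnover 0 passed over 16 libraries, and 0 reached an unadjusted p under 0.05 there, and Has2 and Cemip were lower with 8. With the trend on transcript length and GC content removed, the 8-library fit also called 1 gene of this list higher. Cemip (ENSMUSG00000052353), which depolymerises hyaluronan outside the lysosome, was at 269, 343, 315 and 56.3 CPM with GFP and at 177, 286, 221 and 45.0 CPM with Cre. All 4 pairs were lower with Cre, at -0.61, -0.26, -0.51 and -0.32 on the log2 scale, although the groups overlapped. The difference was -0.43 ± 0.06 in the 8-library edgeR fit (adjusted p = 0.00511) and -0.41 ± 0.31 over 16 libraries (adjusted p = 0.861). The hyaluronidase Hyal2 was at 25.2 ± 1.94 and 26.3 ± 1.87 CPM (SD, n = 4), and the receptor Cd44 at 184 ± 47.7 and 179 ± 45.9 CPM. For Cd44 preparations 1 and 4 were lower with Cre and 2 and 3 higher, and the 95% interval of its 8-library difference ran from -0.20 to 0.14. Of 11 tested receptors and binding proteins Stab1 alone passed, in both fits.

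**Figure D4:**
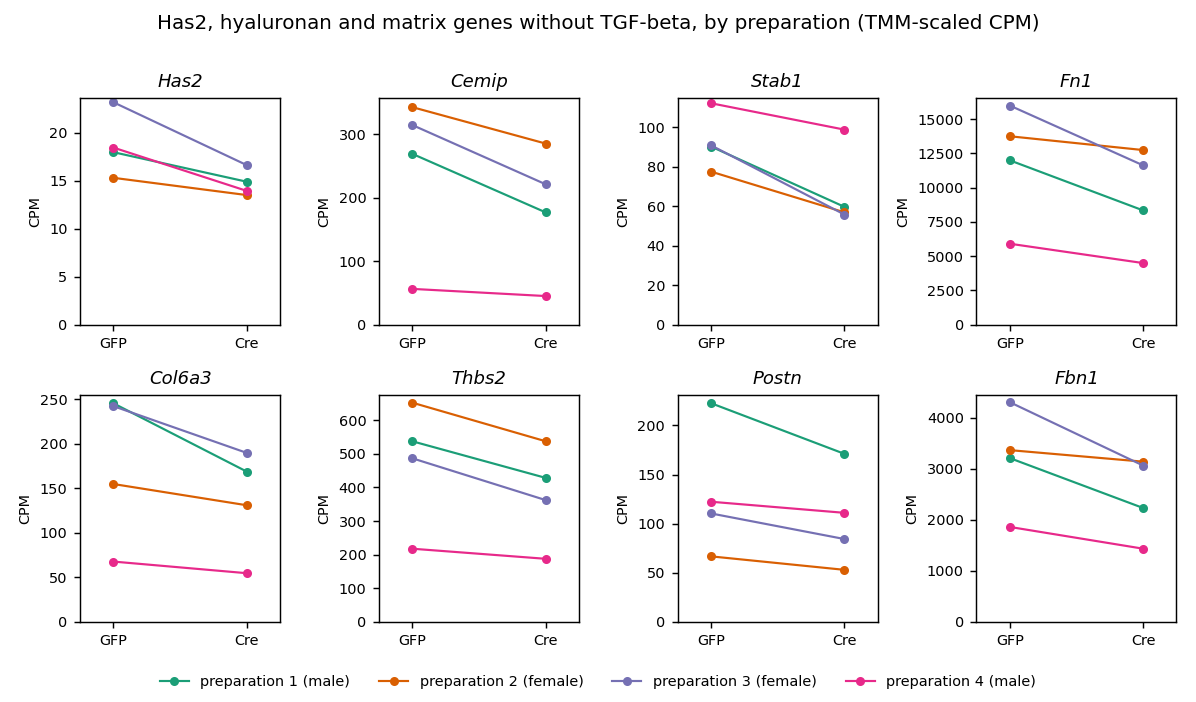
TMM-scaled CPM (linear axes from 0) of Has2, Cemip, Stab1 and 5 matrix genes in the GFP and Cre library of each preparation, joined by a line per preparation. Every line goes down, and the distance between preparations is larger than the step from GFP to Cre for Cemip, Fn1 and Fbn1.

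The lower genes had long transcripts. Their median length was 7278 bases, against 2200 for the 115 higher genes and 3180 for all genes tested, and 141 of the 163 came from the 3051 genes with the longest transcripts (5042 bases and up), 1 of 5 equal classes. Within preparations the Spearman correlation of the difference with transcript length, over 15259 genes that are not independent replicates, was -0.42, -0.02, -0.17 and -0.41 in preparations 1 to 4. The longest class had median differences of -0.21, 0.00, -0.07 and -0.20 in those preparations, and the shortest class 0.15, 0.02, 0.09 and 0.14. Col6a3, Fbn1 and Fn1 belong to the longest class. With the trend of each library on length and GC content removed, the 8-library fit called 137 genes higher (0.935%) and 62 lower (0.423%). Of the 163 lower genes 43 were among those 62, and of the 115 higher genes 74 were among the 137. Has2 (-0.32, adjusted p = 0.0428), Cemip (-0.31, adjusted p = 0.00232) and 4 of the 7 matrix genes, Col6a3, Thbs2, Fbn1 and Fn1 (-0.23, adjusted p = 0.00959), still passed. Postn (adjusted p = 0.259), Col11a1 (0.0955) and Col14a1 (0.0652) did not. The matrix list as a whole had 5 genes lower in that fit, 4 of them among the 7. The interferon lists had medians of 0.91, 0.75 and 0.65 with 13 of 57 genes called. RNA integrity was not given in the sources used here, and its part in the length trend was not tested.

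**Figure D5:**
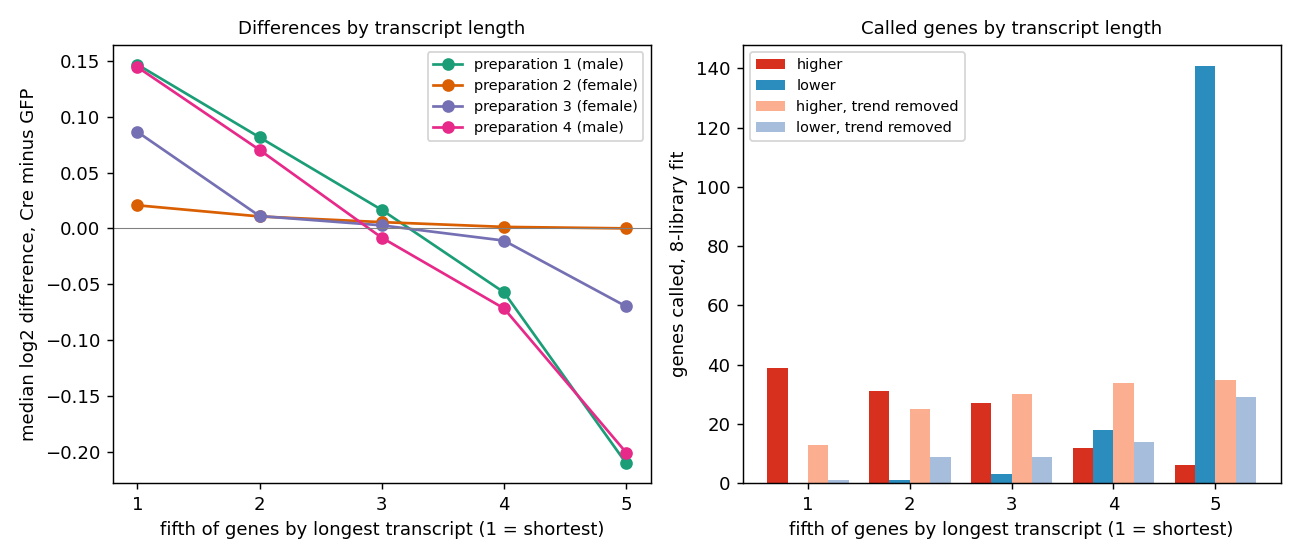
Left, median log2 difference (Cre minus GFP) in 5 equal classes of genes by longest transcript, 1 line per preparation. Right, genes called in the 8-library fit by the same classes, before and after the trend on length and GC content was removed. Preparations 1 and 4 go from 0.15 and 0.14 in the shortest class to -0.21 and -0.20 in the longest, and 141 of 163 lower calls sit in the longest class, 29 of 62 with the trend removed.

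The 48 cytosolic ribosomal protein genes had a median of 0.15, and 39 were higher in all 4 preparations, where 12.7% of all genes tested were. Over 16 libraries 0 passed, with 6 at an unadjusted p under 0.05, beside 882 of all 15285 genes tested. Rps24, Rpl24 and Rpl26 passed with 8, and none of the 3 did with the trend removed (0.26, 0.15 and 0.11, the smallest adjusted p being 0.0510 for Rpl24). Rps24 was at 496, 438, 435 and 626 CPM with GFP and at 613, 459, 542 and 764 CPM with Cre. The 52 subunits of oxidative phosphorylation had a median of 0.13, and Uqcrq of complex III passed with 8 libraries (0.25 ± 0.05, adjusted p = 0.0306). The median transcript length of these lists was 1115 and 1232 bases. With the trend removed their medians were 0.08 and 0.06, and 1 and 3 of their genes were called higher. The 1 ribosomal gene was none of those named above, and Uqcrq was among the 3 (0.19, adjusted p = 0.0340). The 13 mitochondrially encoded mRNAs, also short (median 784 bases), had a median of -0.10 with 2 above 0, and of -0.21 with the trend removed.

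The lists of p53 targets, cell cycle, unfolded protein, heat shock and sterol genes held no calls in either fit. The 24 tested p53 targets and DNA damage genes gave 0 calls in both fits and had a median of -0.01. Cdkn1a, the p53-induced brake on the cell cycle, was at 575, 607, 561 and 524 CPM with GFP and at 590, 625, 565 and 544 CPM with Cre. The pairs differed by at most 0.05, and the 95% interval of the difference ran from -0.11 to 0.18 over 16 libraries. Of 36 cell cycle and DNA replication genes 0 passed. The proliferation marker Mki67, a transcript of 10061 bases, was at 37.7, 21.1, 45.8 and 62.1 CPM with GFP and at 23.2, 20.5, 26.1 and 45.5 CPM with Cre, and missed the threshold (-0.50 ± 0.11 with 8 libraries, edgeR adjusted p = 0.0527). Of 23 genes of the unfolded protein and ATF4 response, 17 heat shock chaperones and 21 of sterol synthesis 0 passed in either fit. At an unadjusted p under 0.05 these 5 lists held 1, 0, 1, 1 and 0 genes over 16 libraries, beside 882 of all 15285 genes tested. DESeq2 called 0 genes of these lists. Of 23 contractile and myofibroblast genes 0 passed over 16 libraries and Myh10 was lower with 8 (-0.21), a call lost with the trend removed (-0.07, adjusted p = 0.369). The remaining lists were mitochondrially encoded mRNAs (13 genes), glycolysis (22), nuclear long noncoding RNAs and RNA processing (20), endothelial markers (13) and pericyte and smooth muscle markers (8). They gave 0 calls over 16 libraries, with 0, 0, 1, 1 and 0 genes at an unadjusted p under 0.05. Notch3 of the last was lower with 8 (-0.26) but not with the trend removed (-0.12, edgeR adjusted p = 0.131). With the trend removed the 8-library fit called 2 glycolysis genes higher and 1 mitochondrially encoded mRNA lower. Acta2, smooth muscle actin, was at 328 ± 63.4 CPM with GFP and 310 ± 62.7 CPM with Cre (SD, n = 4).

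With TGF-beta in the medium, the other 8 libraries of the same preparations gave 10 genes higher in Cre cells (0.0654% of those tested) and 0 lower. None of the 25 genes above was among them, but all 25 had a difference above 0, with a median of 0.46. From the first 3 interferon lists 1 gene was among the 10, Gbp7 (1.15 ± 0.19, edgeR, adjusted p = 0.0401), which stood at 0.62 ± 0.17 without TGF-beta. The list of nuclear long noncoding RNAs and RNA processing held 3 of the 10, Malat1 among them (1.10 ± 0.12, adjusted p = 0.00267). The first 3 interferon lists together had a median of 0.40. Ifit1 stood close to its difference without TGF-beta (1.00 ± 0.18, adjusted p = 0.0710), whereas Gbp2 stood at 0.19 ± 0.12, on levels of 13.0 CPM with GFP and 14.8 CPM with Cre. Has2 stood at -0.04 ± 0.15. When the Cre difference was tested between media in edgeR, 0 of 15285 genes passed after adjustment. At an unadjusted p under 0.05 there were 501, a smaller share than the 0.05 that chance alone would give. Gbp2 was among them (-0.66 ± 0.17, edgeR, unadjusted p = 0.00144, adjusted p = 0.99999). The difference between male and female preparations, 2 of each, was called in 0 genes. At an unadjusted p under 0.05 there were 277, again a smaller share than 0.05 of the genes tested.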

How the data were processed

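RNA was measured in 16 libraries, 8 of them compared here. The authors deposited raw counts per Ensembl gene in 1 table of 55414 identifiers and 16 columns, whole numbers without normalization. Per the submitters' processing notes, HTSeq 0.10.0, FastQC 0.10.1 and the build mm39 (GRCm39) were used; the aligner, annotation and strand setting were not given in the sources used here, which leaves antisense, overlapping and duplicated genes uncertain. The library kit was NEBNext Ultra II, per the labels. GENCODE M21, of an earlier build, gave symbols for 52081 identifiers and transcript lengths and GC content.

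Columns were matched to samples by name. Genes were kept with filterByExpr (minimum count 10, minimum total 15), which left 15285 genes with 99.9% of the counts, and scaled by TMM (factors 0.908 to 1.12). The main test, run in R 4.3.3 with limma 3.58.1 and edgeR 4.0.16, was edgeR's robust quasi-likelihood F test, 1 mean per group plus the preparation as a block over all 16 libraries, and the calling threshold was 0.05 on p-values adjusted by Benjamini-Hochberg. Standard errors are the log2 difference divided by the square root of F. Within-preparation differences used log2 CPM with a prior count of 2. A fit to the 8 compared libraries with the block, and the same with a loess trend (span 0.3) of each library on length and GC content removed, are set beside it. Scripts were tested on simulated data.

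The pairing comes from preparation codes in the library names. After subtraction of the group means, the 4 pairs of equal number correlated with r from 0.466 to 0.838, and the 12 others with -0.679 to 0.240. The 12 pairs of libraries within a group all differed beyond counting noise, with a chi-square of 20.7 to 208 a gene. Whether preparations came from separate animals is not stated, so p-values speak for these 4 alone. The main fit held the preparation as a block across both media. Its residual spread therefore also takes in how preparations differed in their response to TGF-beta. The fit to the 8 compared libraries rests on the spread of the Cre difference between preparations. The biological coefficient of variation was 0.123 in the main fit and 0.0664 in the fit to the 8 compared libraries.

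The comparison and the 27 gene lists were chosen with earlier results of these data known. Named genes are the hyaluronan synthases, all called genes with an established symbol, and up to 3 further members of each list with the smallest p and at least 1 CPM; others were chosen after their values were seen. Lists are described by counts and medians, with no set test. Alternatives were no block, the 8 libraries alone, DESeq2 1.42.0, RLE factors, no filter and a stricter one (5 CPM in 4 libraries), removal of the trend, a block within each medium, and leaving out each library or preparation. The protocol also names a Has2 overexpression virus, not used here, and 1 called gene is not reported here.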

Additional observations from a re-analysis of the deposited data

Results flagged for a closer look

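In 210 sets of 4 libraries (the named genes and 4 library measures in each virus group), 29 had 1 library far from the other 3, with a gap above Dixon's 95% critical value. Chance flags about 1 in 20 sets when each is an independent sample from a normal distribution. These sets share the same libraries and are not independent, so the 29 are no measure of an excess over chance. Of the 29, 24 were libraries of preparation 4.

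Among GFP libraries, the one of preparation 4 was the high outlier for interferon-induced genes: Mndal at 36.1 CPM, Slfn2 at 62.2, Gbp3 at 78.6, Ube2l6 at 80.5, Zbp1 at 111.7, Irf7 at 239 and Psmb10 at 31.9 CPM. It was also high for Srsf11 (87.7 CPM) and the keratin Krt19 (2.89 CPM), and low for Col5a1 (1326 CPM), Col1a2 (5827 CPM), Pdgfra (692 CPM), Notch3 (58.7 CPM), Zmat3 (137.9 CPM) and the share of counts in its 10 most abundant genes (7.34%). Among Cre libraries, that of preparation 4 was high for Stab1 (98.8 CPM), Fcgr1 (24.4 CPM), Adgre1 (41.7 CPM), Srsf11 (89.1 CPM) and mt-Atp6 (6.66 CPM), and low for Tap2 (72.3 CPM), Col5a1 (1211 CPM), Col1a2 (5364 CPM) and Notch3 (49.2 CPM).

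The Cre library of preparation 3 was the high outlier for Gbp2 (125.7 CPM), Irgm2 (139 CPM) and Tor3a (178 CPM). The GFP library of preparation 2 was high for Rpl19 (935 CPM), and that of preparation 1 low for the glycolytic enzyme Eno1 (1194 CPM). Calls without these preparations are given with the counts above.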

How the results depend on the processing

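Signs were followed for the named genes alone: of these, the 24 called over 16 libraries and the 63 called with 8 libraries kept theirs wherever an alternative tested them. The number of calls depended on how the spread was estimated and on single preparations. Over 16 libraries 25 genes were higher and 1 lower. Without the replicate block edgeR called 0 and 0, over 16 libraries and also over the 8 compared (227 genes at an unadjusted p under 0.05 there). With the block, the 8 libraries gave 115 and 163, DESeq2 75 and 3, no filter 44 and 2, the stricter filter 15 higher, and removal of the trend on length and GC content 0 lower. The block within each medium, chosen after seeing the data, gave 63 and 9. Leaving out 1 library or preparation gave 0 to 103 higher and 0 to 11 lower. Has2 passed with the 8 libraries compared (-0.33).

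The alternatives for the 8-library fit were chosen after seeing the data. Its 115 higher and 163 lower genes became 475 and 598 with no filter and 0 and 0 without the replicate block. Lower calls were 62 with the trend removed and 316 by DESeq2. Leaving out a preparation gave 15 to 272 higher and 3 to 540 lower, and Has2 values from -0.38 to -0.28. Has2 did not pass with the stricter filter (-0.33, adjusted p = 0.0503) or without the block (-0.34). The causes of these shifts were not tested. Depth limits Has3, the interferon genes and Upk1b, which rest on a few counts.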

Other observations

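Genes outside the lists that passed with the 8 compared libraries, all named after their values were seen, included further targets of interferon. Cd274, which encodes the T cell inhibitory ligand PD-L1, ranged from 1.66 to 4.76 CPM with GFP and from 2.72 to 6.63 CPM with Cre, higher in 4 of 4 preparations (0.63 ± 0.13, edgeR adjusted p = 0.0260). The RNA helicase Ddx60 stood at 0.91 ± 0.15 and the histone chaperone Daxx at 0.36 ± 0.06, both higher in 4 of 4 preparations. The secreted lipocalin Apod was at 1.30 to 1.96 CPM with GFP and 2.43 to 4.56 CPM with Cre, without overlap (1.03 ± 0.19). Timp1, an inhibitor of matrix metalloproteinases, was among the most abundant of these genes, at 1636, 2433, 2143 and 2359 CPM with GFP and at 2132, 2854, 2457 and 2839 CPM with Cre (0.27 ± 0.04, adjusted p = 0.00963). All 5 also passed with the trend on length and GC content removed.

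Of the genes lower with 8 libraries, 4 more are given, also picked after their values were seen and with no list or test behind the choice. The mannose 6-phosphate receptor Igf2r fell from 831, 797, 938 and 430 CPM to 534, 673, 571 and 333 CPM (-0.49 ± 0.07), the receptor Lrp1 stood at -0.40 ± 0.07, the perlecan gene Hspg2 at -0.41 ± 0.07 and the laminin gene Lama2 at -0.41 ± 0.08. With the trend removed Hspg2 passed (-0.19, adjusted p = 0.0124), while Igf2r (adjusted p = 0.155), Lrp1 (0.0623) and Lama2 (0.244) did not.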
